A study of Chelon labrosus with 24 samples.

Results

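The 5 phase I enzymes outside the CYP1 family described here are CYP_2, Cyp2N, CYP3, Epoxide_hydrolase1 and alcohol_DHVI, as the array design spells them. They were found by name: every probe whose gene name, without regard to case or punctuation, equals 1 of these 5 names was taken. That gave 5 of the 160 genes and 21 of the 638 probes of the design. The values are from liver RNA of immature thicklip grey mullet (Chelon labrosus), a coastal fish, measured on 24 one-colour Agilent custom arrays. Fish were exposed in cages in Pasaia harbour at an inner place (Pasaia_AZTI) or an outer place (Pasaia_Donibane) and livers were sampled on 2 occasions. The 4 groups were inner harbour at the second sampling, outer harbour at the second sampling, inner harbour at the first sampling and outer harbour at the first sampling, with 6 samples each. The sample labels put the samplings at day 5 and day 21, whereas the series' design text speaks of 3 and 15 days in the cages. They are called the first and the second sampling here. All groups share field exposure in the harbour, and no uncaged or clean-water group is among them. Each site is represented by its own cage alone, and the labels do not say whether each sample is a separate fish, so p-values reflect only how these samples vary, which may be partly technical.

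Phase I enzymes carry out the first chemical step on fat-soluble foreign compounds and on many of the body's own lipids and steroids, adding or exposing a polar group on which conjugating enzymes can then act. Most are cytochrome P450 monooxygenases, which use oxygen to hydroxylate or epoxidise a substrate. CYP1 enzymes are induced through the aryl hydrocarbon receptor by planar aromatic pollutants, while the CYP2 and CYP3 families have other regulators and broad substrate ranges, CYP3A enzymes being prominent in vertebrate liver. CYP2N enzymes are known from killifish as arachidonic acid monooxygenases. Epoxide hydrolase 1 is a microsomal enzyme that opens reactive epoxides, many of them made by P450s, into dihydrodiols. Alcohol dehydrogenases oxidise alcohols to aldehydes or ketones. The VI of alcohol_DHVI is given as spelled, and it is not stated which members of the CYP2 and CYP3 families CYP_2 and CYP3 are.

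The probes are shown because the array design names the genes only by these short names, and because the number of independent readings per gene follows from how far its probes overlap. Each is a 55-base oligonucleotide, printed 5′ to 3′ from the scanner files, and GC content ran from 38.2% to 50.9%. The brightest probe of CYP_2, CYP3, Epoxide_hydrolase1 and alcohol_DHVI stands first, with the bases that all 4 probes of that gene share in capitals. For Cyp2N, capitals mark bases shared with another Cyp2N probe, and its 4 different sequences are given from the one whose end overlaps the next.
CYP_2: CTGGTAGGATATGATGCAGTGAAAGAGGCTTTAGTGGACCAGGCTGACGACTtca
CYP3: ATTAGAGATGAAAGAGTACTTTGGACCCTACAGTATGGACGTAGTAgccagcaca
Epoxide_hydrolase1: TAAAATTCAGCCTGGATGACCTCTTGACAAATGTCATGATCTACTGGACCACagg
alcohol_DHVI: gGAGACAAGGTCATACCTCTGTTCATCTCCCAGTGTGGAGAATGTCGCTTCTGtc
Cyp2N brightest: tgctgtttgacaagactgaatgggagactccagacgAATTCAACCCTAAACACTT
Cyp2N next: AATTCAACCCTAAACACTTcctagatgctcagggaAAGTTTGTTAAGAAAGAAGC
Cyp2N last of the run: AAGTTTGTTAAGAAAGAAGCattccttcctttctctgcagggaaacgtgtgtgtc
Cyp2N apart: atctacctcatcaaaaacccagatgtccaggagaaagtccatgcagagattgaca

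The 4 probes of CYP_2 are shifted by single bases, so that they share 52 bases and span 58 in all, and the same holds for Epoxide_hydrolase1 and for alcohol_DHVI. The CYP3 probes share 46 bases and span 64. For these 4 genes the probes are therefore repeat readings of 1 stretch of transcript. Cyp2N is covered more widely: 3 of its sequences run head to tail over 126 bases with overlaps of 19 and 20 bases, and another shares no overlap with them. The last of that run is on the array in 2 versions, spelled CYP2_N with 4 spots and Cyp2N with 10 spots. Over the 24 arrays the version with 10 spots read 0.06 lower than the version with 4 spots on the log2 scale (SD 0.04, range -0.13 to 0.01). This is the disagreement between spots of 1 sequence within an array, and it does not cover technical variation between arrays. Within each gene the probes followed each other across the arrays with r of at least 0.99. No probe can be placed on a genome here, since no coordinates come with the design.

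All 21 probes were well above background on all 24 arrays and none was saturated, so every level below was measured. Across the whole design, 371 to 484 probes per array were well above background, with 424 to 470 in the inner harbour and 371 to 455 in the outer harbour at the second sampling, and 443 to 484 and 458 to 482 at the first. Each of the 3 slides holds 2 arrays of every group, and arrays of the first sampling lie in 1 row of the slide and those of the second in the other, so the effect of sampling and that of array row cannot be told apart. The 8 plasma protein genes on the array that hepatocytes secrete, among them transferrin, haptoglobin, ApoE and the fibrinogens, were well above background on all 24 arrays, but not all were steady. A marker gene counts as called where any of its probes was, whereas the shares beside these counts are of single probes. By site at the first sampling 2 of the 8 were called lower, against 9.24% of all tested probes. These were a-2_macroglobulin (-0.98 ± 0.18, adjusted p = 0.00106) and Transferrin (-0.94 ± 0.26, adjusted p = 0.0249). At the second ApoE was called higher (1.28 ± 0.39, adjusted p = 0.0301), against 12.8% of all tested probes. Between samplings a-2_macroglobulin (1.07 ± 0.18) and Transferrin (0.78 ± 0.26) were called higher in the inner harbour, against 17.9% of all tested probes. Complement C3 was called lower there with 2 of 4 probes (-0.73 ± 0.23 for the brighter of them), against 7.56%. The brightest C3 probe was not called and went the other way, with means of 0.19 at the second and -0.04 at the first sampling. ApoE was called lower between samplings in both harbour parts, by -3.41 ± 0.39 in the inner and -4.28 ± 0.39 in the outer. Trypsin, a marker of the pancreatic tissue that lies within fish liver, ranged widely in all groups and overlapped between them. The 3 genes with leukocyte names had a summed level (linear, relative to the array's 75th percentile) of 0.03225 to 0.3505 in the inner and 0.0322 to 0.163 in the outer harbour at the second sampling, and of 0.0205 to 0.0637 in the inner and 0.0624 to 0.314 in the outer harbour at the first. Of 4 egg envelope and yolk genes, which liver makes under estrogen, 2 had tested probes. Choriogenina_L was called higher by site at the first sampling with 4 of 4 probes (3.95 ± 1.08, adjusted p = 0.0232) and lower between samplings in the inner harbour (4 of 4 probes, adjusted p = 0.00179). It was well above background on 0 of 6 inner and 1 of 6 outer arrays at the second sampling, and on 5 of 6 inner and 2 of 6 outer arrays at the first. Its brightest probe reached the 6 arrays needed for testing only through the inner harbour at the first sampling, where it was high. The Choriogenina_L calls rest on that group and are no separate support. The part of these marker genes in the differences of the enzymes below was not tested. The array carries no gene with an erythrocyte name. In whole liver, fewer cells of a type and less RNA per cell cannot be told apart.

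Levels are log2 spot intensities relative to the 75th percentile of their array, so 0 is a probe at that percentile and a difference of 1 is a doubling. They are compared between samples for 1 probe at a time and never between probes. A probe was called where limma's adjusted p, over the 476 tested probes, was under 0.05. At the second sampling 10 of the 21 probes were called higher in the inner than the outer harbour and 0 lower, from CYP_2, Epoxide_hydrolase1 and CYP3, against 12.8% and 0% of all tested probes. At the first sampling 4 were called higher, all of CYP_2, and 0 lower, against 5.25% and 9.24% of all tested probes. Between samplings in the inner harbour 13 were called higher at the second and 0 lower, from alcohol_DHVI, Cyp2N and CYP3, against 17.9% and 7.56%. In the outer harbour 0 were called higher at the second sampling and 4 lower, all of Epoxide_hydrolase1, against 3.15% and 13.4%. The site difference itself was called larger at the second than at the first sampling for 4 probes, again all of Epoxide_hydrolase1, and smaller for 0, against 11.1% and 1.05%. Because probes of a gene overlap, these counts stand for 5 genes. With 1 probe per gene, 2 genes were higher by site at the second sampling and 1 at the first, 3 were higher between samplings in the inner harbour, and 1 was lower in the outer harbour.

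The median difference over the 21 probes was 0.50 for site at the second sampling and -0.27 at the first, against 0.10 and -0.09 over all tested probes. Between samplings it was 0.71 in the inner and 0.39 in the outer harbour, against 0.14 and -0.08. The values of inner and outer samples did not overlap for 7 of the 21 probes at the second sampling and for 0 at the first, where 7.77% and 2.52% of all tested probes did not. Second and first sampling did not overlap for 8 probes in the inner harbour and 7 in the outer harbour, against 11.6% and 10.9%.

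**Figure D1:**
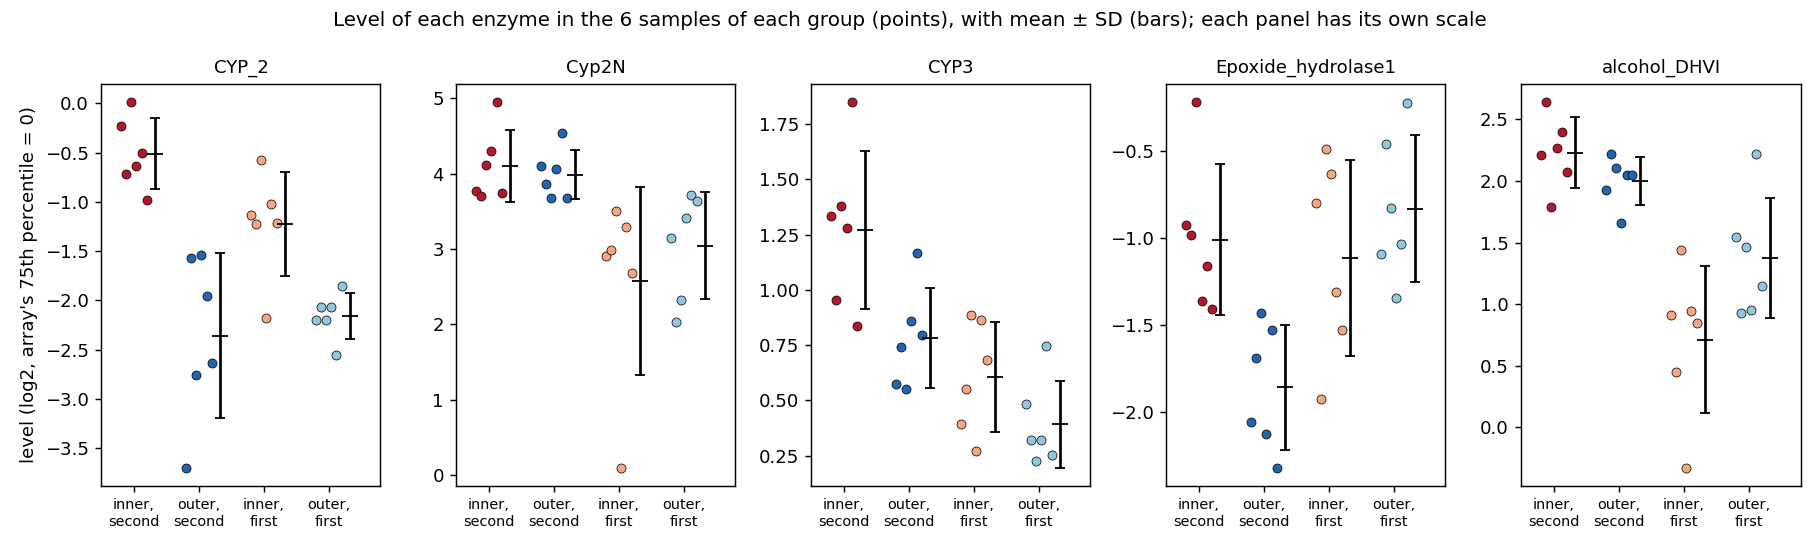
Log2 level of the brightest probe of each enzyme in the 6 samples of each group (points, in order of sample number), with the mean ± SD beside them; each panel has its own vertical axis and levels are not comparable between panels. CYP_2 of inner and outer samples stands apart at the second sampling, Epoxide_hydrolase1 of the outer harbour is low at the second sampling, and the lowest Cyp2N point, 0.10, belongs to first-sampling inner sample 5.

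CYP_2, a gene named for the CYP2 family of monooxygenases, was higher in the inner harbour at both samplings. At the second sampling its level in the inner harbour ran from -0.98 through a median of -0.57 to 0.014, and in the outer harbour from -3.70 through -2.29 to -1.54. All 6 inner samples lay above all 6 outer samples. The group means were -0.51 ± 0.36 and -2.36 ± 0.84 (SD, n = 6 each), a difference of 1.85 ± 0.30 (SE) or 3.60-fold, with a 95% interval of 1.22 to 2.47 and an adjusted p of 3.25e-04 in limma. At the first sampling the inner harbour ran from -2.18 through -1.18 to -0.58 and the outer harbour from -2.56 through -2.14 to -1.86. Here 5 of 6 inner samples lay above every outer sample, and sample 5 lay among them. The difference was 0.93 ± 0.30 (SE), or 1.91-fold, with an interval of 0.31 to 1.56 and an adjusted p of 0.0461. All 4 probes were called at both samplings.

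These CYP_2 calls were of unequal strength. The second-sampling difference was 2.16, 1.84 and 1.55 within slides 1, 2 and 3, was called under all 13 alternative settings (1.54 to 2.01) and held whichever of the 12 samples was left out. The first-sampling difference was 0.96, 0.76 and 1.08 within the slides and kept its sign throughout, but was called under 6 of the 13 settings (0.87 to 1.18, adjusted p 0.0171 to 0.205), and after leaving out any 1 sample in 2 of 12 cases. In this comparison 2 of the 3 leukocyte genes were called lower in the inner harbour, against 9.24% of all tested probes. MHC_II differed by -5.55 ± 1.64 (2 of 4 probes, adjusted p = 0.0322) and was well above background on 1 of 6 inner and 6 of 6 outer arrays. The immunoglobulin gene differed by -1.29 ± 0.39 (1 of 2 tested probes, adjusted p = 0.0364), while Mhc2 did not pass (-1.04 ± 0.67, adjusted p = 0.340). The summed levels overlapped only narrowly, at 0.0205 to 0.0637 in the inner and 0.0624 to 0.314 in the outer harbour. Transferrin and a-2_macroglobulin were also lower and Choriogenina_L higher there, as given above. Between samplings CYP_2 differed by 0.72 ± 0.30 in the inner harbour (adjusted p = 0.0820) and by -0.20 ± 0.30 in the outer (adjusted p = 0.680), and its site difference changed by 0.91 ± 0.43 (adjusted p = 0.145, interval 0.03 to 1.80). None of the 3 passed the test. The groups fell in the order inner second, inner first, outer first and outer second. Each inner group stood above the next by more than their pooled SD, while the outer groups, 0.20 apart, did not differ beyond theirs of 0.61.

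**Figure D2:**
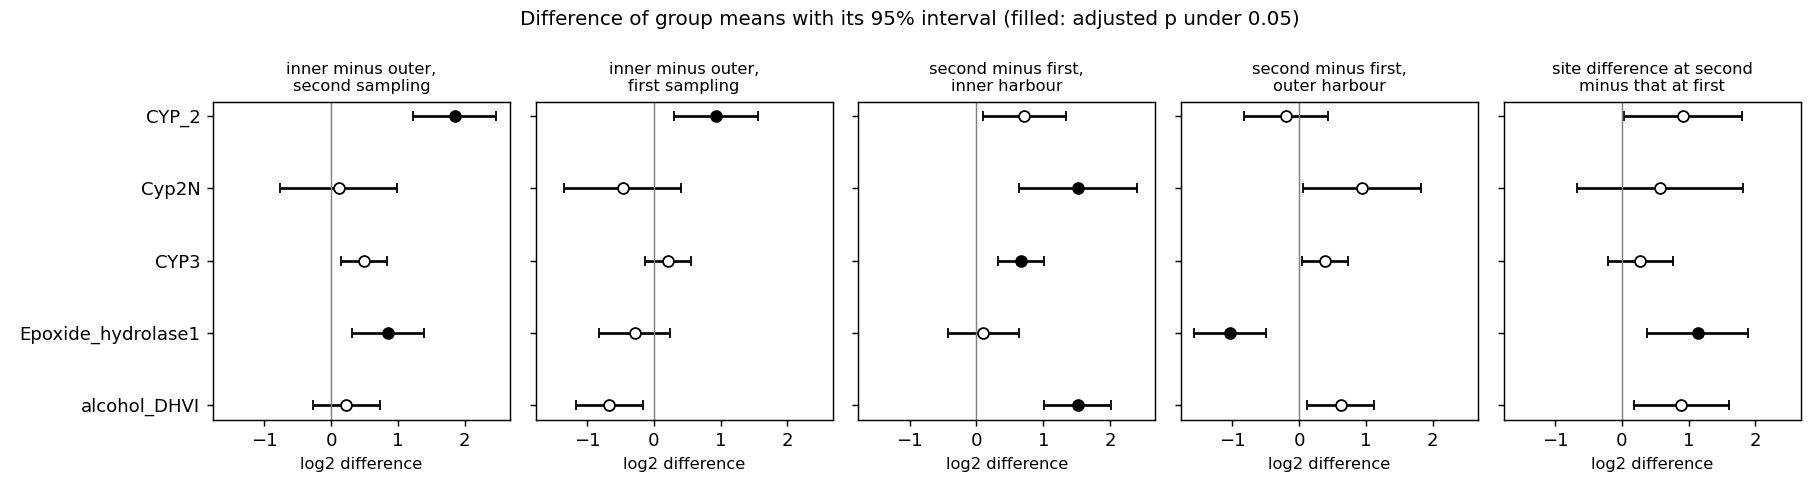
Log2 difference between group means with its 95% interval for the brightest probe of each enzyme (rows) in 4 comparisons and for the change of the site difference (columns); filled points had an adjusted p under 0.05. CYP_2 is filled in both site columns, alcohol_DHVI, Cyp2N and CYP3 in the inner-harbour column, and Epoxide_hydrolase1 in the second-sampling site column, the outer-harbour column and the last column.

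Cyp2N, named for the P450s that act on arachidonic acid in killifish, rose between samplings in the inner harbour. Its level there ran from 3.70 through a median of 3.94 to 4.95 at the second sampling and from 0.10 through 2.94 to 3.50 at the first. All second samples lay above all first samples, although sample 5 of the first sampling stood far below the rest, whose lowest was 2.68. The means were 4.10 ± 0.48 and 2.58 ± 1.25 (SD, n = 6 each), a difference of 1.52 ± 0.42 or 2.87-fold, with an interval of 0.64 to 2.40 and an adjusted p of 0.0104. All 5 probes were called, including the sequence that lies apart from the other 3, with differences of 1.52 to 1.60. The difference was called under all 13 settings (1.20 to 1.56) and in all 12 leave-one-out fits. Without sample 5 of the first sampling it was the smallest of those fits at 1.02, and still past the threshold.

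In the outer harbour Cyp2N ran from 3.67 through 3.96 to 4.54 at the second sampling and from 2.03 through 3.28 to 3.71 at the first, with 4 of 6 second samples above all first samples. The difference of 0.94 ± 0.42, with an interval of 0.06 to 1.82, did not pass the test (adjusted p = 0.143), although for 3 of the 5 probes the groups did not overlap. The rise in the inner harbour and this value were not shown to differ, since the site difference changed by 0.58 ± 0.60 (adjusted p = 0.582). Between sites Cyp2N differed by 0.11 ± 0.42 at the second sampling (interval -0.77 to 0.99, adjusted p = 0.962) and by -0.47 ± 0.42 at the first (interval -1.34 to 0.41, adjusted p = 0.504). The first-sampling value rested on sample 5 of the inner harbour and was 0.03 without it. The order of the groups was inner second, outer second, outer first and inner first, and neither the first pair nor the last pair in that order differed beyond its pooled SD.

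CYP3, named for the family that holds the broad-range CYP3A monooxygenases, rose between samplings in the inner harbour. Levels there ran from 0.84 through a median of 1.31 to 1.85 at the second sampling and from 0.27 through 0.62 to 0.89 at the first. Of the second samples, 5 of 6 lay above all first samples. The means of 1.27 ± 0.36 and 0.61 ± 0.25 (SD, n = 6 each) differed by 0.66 ± 0.17, or 1.59-fold, with an interval of 0.32 to 1.01 and an adjusted p of 0.00452. All 4 probes were called. The call held in all 12 leave-one-out fits and under 11 of 13 settings, and was lost when arrays were scaled on detected probes alone (0.35, adjusted p = 0.244) or on spike-in controls (0.58, adjusted p = 0.311). In the outer harbour CYP3 ran from 0.55 through 0.77 to 1.17 at the second sampling and from 0.22 through 0.32 to 0.74 at the first. The difference of 0.39 ± 0.17 did not pass (adjusted p = 0.124).

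By site, CYP3 sat at the threshold at the second sampling. The inner minus outer difference was 0.49 ± 0.17 (interval 0.15 to 0.84, adjusted p = 0.0542) for the brightest probe, with 4 of 6 inner samples above all outer samples. Differences of 0.49 to 0.51 were found for the 4 overlapping probes, of which 2 were called. The brightest probe passed under 3 of 13 settings (0.35 to 0.65) and in 3 of 12 leave-one-out fits (0.38 to 0.58). Under the 7 settings that altered scaling, background or spot summary it passed 0 times. At the first sampling the difference was 0.22 ± 0.17 (adjusted p = 0.437), and the site difference changed by 0.27 ± 0.24 (adjusted p = 0.520). The groups fell in the order inner second, outer second, inner first and outer first, and only the step from inner second to outer second, of 0.49, exceeded its pooled SD of 0.30.

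Epoxide_hydrolase1, which converts epoxides to dihydrodiols, was the 1 gene of the 5 to fall, and it fell in the outer harbour. Its level there ran from -2.32 through a median of -1.88 to -1.43 at the second sampling and from -1.35 through -0.93 to -0.22 at the first, without overlap. The means were -1.86 ± 0.36 and -0.83 ± 0.42 (SD, n = 6 each). It fell by 1.03 (SE 0.26, interval -1.56 to -0.50), which is 2.04-fold lower, with an adjusted p of 0.00623. In the inner harbour the level ran from -1.41 through -1.07 to -0.22 at the second sampling and from -1.93 through -1.05 to -0.49 at the first, with wide overlap. The difference there was 0.10 ± 0.26 (interval -0.43 to 0.64, adjusted p = 0.874) and its sign turned under 3 settings.

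Between sites Epoxide_hydrolase1 was higher in the inner harbour at the second sampling, by 0.85 ± 0.26 or 1.80-fold (interval 0.32 to 1.39, adjusted p = 0.0296). Every inner sample lay above every outer sample, but narrowly, with the lowest inner at -1.41 and the highest outer at -1.43. The groups did not overlap for 3 of the 4 probes. At the first sampling the difference was -0.28 ± 0.26 (adjusted p = 0.504), and within slides it was -0.59, 0.53 and -0.79. How far the site difference shifted from sampling to sampling was tested as such, and it was 1.14 ± 0.36, with an interval of 0.38 to 1.89 and an adjusted p of 0.0412. Epoxide_hydrolase1 was the only 1 of the 5 genes whose interaction passed. Of the marker genes above, Transferrin was called in the same direction (1.28 ± 0.37, 4 of 4 probes, adjusted p = 0.0264). Choriogenina_L was called in the other (-4.87 ± 1.48, 1 of 4 probes, adjusted p = 0.0330). As given above, its brightest probe was tested only through its high first-sampling inner group. Of all tested probes 11.1% were called larger and 1.05% smaller. All 4 Epoxide_hydrolase1 probes were called for the second-sampling site difference, for its change between samplings and for the fall in the outer harbour. For the first-sampling site difference 0 were called. The order of levels was outer first, inner second, inner first and outer second, with only the step down to outer second larger than the pooled SD.

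The Epoxide_hydrolase1 calls depended on how arrays were scaled. The fall in the outer harbour was -1.10, -0.69 and -1.30 within slides 1, 2 and 3 and was called in all 12 leave-one-out fits. After quantile normalization it was -0.57 (adjusted p = 0.0930), and in the authors' deposited log2 table it was -0.62 (adjusted p = 0.0662). The second-sampling site difference was 0.92, 0.99 and 0.64 within the slides. It was 0.41 after quantile normalization (adjusted p = 0.304) and 0.47 in the deposited table (adjusted p = 0.212), and it lost its call in 4 of 12 leave-one-out fits, without sample 3 of the inner harbour or sample 2, 5 or 7 of the outer. The change between samplings was called under 5 of 12 settings (0.51 to 1.33) and in 12 of 24 leave-one-out fits (0.97 to 1.26). Of the 7 settings that altered scaling, background or spot summary, only the median over spots kept the call (1.15, adjusted p = 0.0420). The group concerned, the outer harbour at the second sampling, was also the one with the fewest probes well above background, and the part of this in the result was not tested.

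**Figure D3:**
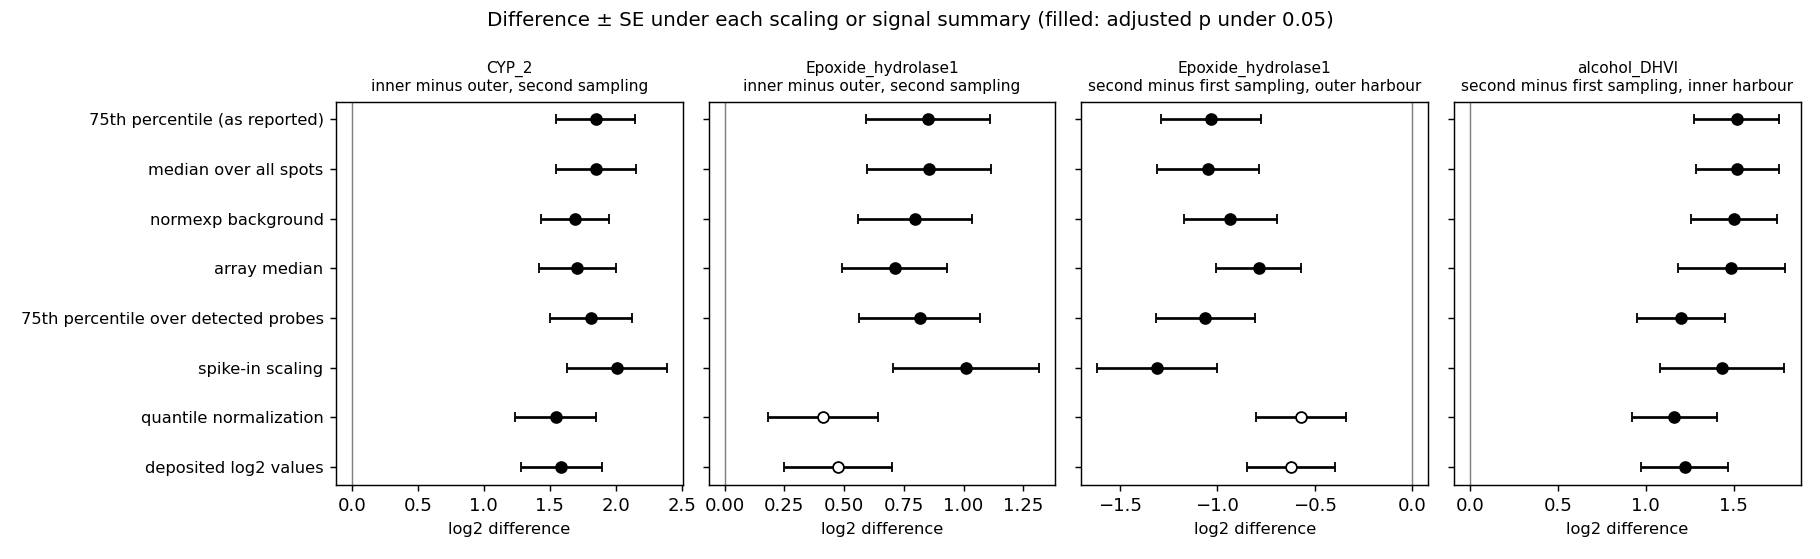
Log2 difference ± SE for CYP_2 and Epoxide_hydrolase1 between sites at the second sampling, Epoxide_hydrolase1 between samplings in the outer harbour, and alcohol_DHVI between samplings in the inner harbour, with 1 row for each way of summarising or scaling the arrays; filled points had an adjusted p under 0.05. CYP_2 and alcohol_DHVI are filled in every row, while both Epoxide_hydrolase1 differences are open after quantile normalization and in the deposited table.

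alcohol_DHVI, named as an alcohol dehydrogenase, showed the smallest adjusted p of the 5 genes. In the inner harbour its level ran from 1.79 through a median of 2.24 to 2.64 at the second sampling and from -0.32 through 0.88 to 1.44 at the first. The groups did not overlap. The means of 2.23 ± 0.29 and 0.71 ± 0.60 (SD, n = 6 each) differed by 1.52 ± 0.24, or 2.86-fold, with an interval of 1.01 to 2.02 and an adjusted p of 4.84e-05. The rise was 1.74, 1.47 and 1.34 within the slides, was called for all 4 probes and under all 13 settings (1.16 to 1.52), and held in all 12 leave-one-out fits (1.31 to 1.66). Transferrin and a-2_macroglobulin were likewise higher in this comparison, and ApoE and Choriogenina_L lower. In the outer harbour the level ran from 1.66 through 2.05 to 2.22 at the second sampling and from 0.93 through 1.30 to 2.22 at the first, where 1 sample was as high as the later ones. The difference of 0.62 ± 0.24, with an interval of 0.12 to 1.13, did not pass (adjusted p = 0.0880). It passed under 0 of 13 settings (0.35 to 0.87) and in 1 of 12 leave-one-out fits (0.54 to 0.79). That fit was the one without sample 5 of the outer harbour at the first sampling (0.79, adjusted p = 0.0219).

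Between sites alcohol_DHVI differed by 0.23 ± 0.24 at the second sampling (interval -0.27 to 0.73, adjusted p = 0.736). At the first sampling it differed by -0.66 ± 0.24, with an interval of -1.17 to -0.16 and 4 of 6 inner samples below all outer samples, and this did not pass (adjusted p = 0.0586). It passed in 1 of 12 leave-one-out fits (-0.81 to -0.46), the one without sample 4 of the inner harbour (-0.81, adjusted p = 0.0255). It passed under 1 of 13 settings (-0.70 to -0.41), and under 0 of the 7 that altered scaling, background or spot summary. The change of the site difference was 0.89 ± 0.34 (adjusted p = 0.0849), so the rise in the inner harbour was not shown to differ from the outer value. The order of levels was inner second, outer second, outer first and inner first. The second-sampling groups, 0.23 apart, did not differ beyond their pooled SD of 0.25, and the later steps of 0.62 and 0.66 exceeded theirs.

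Samples of a group also differed from each other, and among first-sampling inner samples in the same way for most of the enzymes. By the brightest probe, sample 4 had the highest level of all 5 genes in that group, although for CYP3 the other 3 probes were highest in sample 7. Sample 5 had the lowest level of 4, at 2.48 below the group mean for Cyp2N, 1.04 below for alcohol_DHVI, 0.95 below for CYP_2 and 0.34 below for CYP3. For Epoxide_hydrolase1 sample 5 was 0.48 above the mean. Both samples are on slide 2, which was scanned on a different date from slides 1 and 3. The 5 levels of a sample come from 1 array and share its scaling, and the same count over all tested probes is not given here. By the brightest probes, in no other group did 1 sample hold the highest or lowest level of more than 3 genes.

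**Figure D4:**
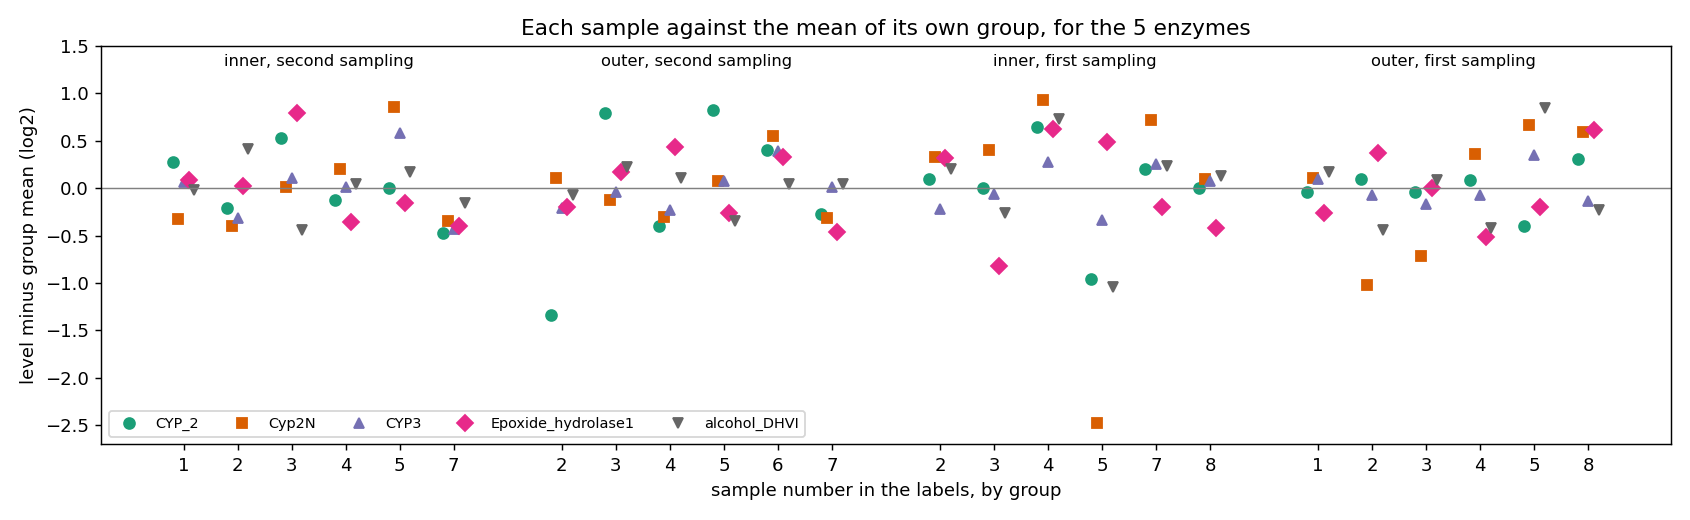
Level of each enzyme in each sample minus the mean of that sample's group (log2), with samples along the horizontal axis by group and sample number and 1 symbol per enzyme. Among first-sampling inner samples, sample 4 lies above the mean for all 5 enzymes and sample 5 below it for all but Epoxide_hydrolase1.

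With group means removed, 10 pairs of the 5 genes were compared over the 24 samples, which share slides and scaling. Cyp2N and CYP3 varied together, with Pearson's r of 0.62 (permutation p = 1.2e-04, adjusted p = 0.0012) and Spearman's rho of 0.63 (permutation p = 0.00142, adjusted p = 0.0142). The r was 0.68 without the 2 samples farthest out in Cyp2N, and it was -0.024, 0.83 and 0.75 within slides 1, 2 and 3, so it did not hold on slide 1. Cyp2N and alcohol_DHVI had r of 0.62 (permutation p = 0.0281, adjusted p = 0.0973) and rho of 0.37 (adjusted permutation p = 0.274). That r dropped to 0.25 without the 2 farthest samples and rested on them. For Epoxide_hydrolase1 and the other 4 genes r lay between -0.19 and 0.23, and no such pair passed the permutation test. No pair other than Cyp2N and CYP3 passed after adjustment.

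Across the 24 arrays, the genes whose levels followed each enzyme most closely among 124 others were found by Pearson's r, given here as a description because arrays share groups, slides and scaling. CYP_2 was nearest to PPARg, a nuclear receptor of fat metabolism, at 0.69, to XDh at 0.65 and to IGFI, a growth factor the liver secretes, at 0.63. With group means removed these became 0.26, 0.36 and 0.51. Cyp2N was nearest to Peroxiredoxine, a peroxide-reducing enzyme, at 0.72, to the fatty acid binding protein FABP at 0.67 and to the superoxide dismutase Cu-Zn_SOD at 0.66, and these were 0.51, 0.63 and 0.13 within groups. CYP3 was nearest to the conjugating enzymes UGT at 0.74 and GST at 0.71 and to CYP7 at 0.70, a family of bile acid synthesis, with 0.31, -0.0044 and 0.26 within groups. alcohol_DHVI was nearest to CYP7 at 0.77, Peroxiredoxine at 0.75 and Cu-Zn_SOD at 0.74, with 0.10, 0.52 and -0.04 within groups. Of the genes nearest to Epoxide_hydrolase1, PolyU, a name given as spelled, had 0.72 over all arrays and 0.71 within groups. Phosphoenolpyruvate carboxykinase, an enzyme of glucose synthesis, had 0.71 and 0.62, and catalase, which breaks down hydrogen peroxide, 0.70 and 0.37.

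Other genes of foreign-compound metabolism on the array were taken by name for comparison. A gene counts as called here where any of its probes was, which is a looser rule than 1 probe per gene. The shares beside these counts are of single probes. The conjugating enzymes, which act after phase I, were UGT (glucuronosyltransferase) and GST (glutathione transferase). Both were called higher in the inner harbour at the second sampling, against 12.8% of all tested probes. So were CYP_2 and Epoxide_hydrolase1 with all 4 probes and, by this looser rule, CYP3 with 2 of 4. The UGT and GST site differences were 1.90 ± 0.32 (adjusted p = 3.25e-04) and 0.85 ± 0.20 (adjusted p = 0.00749). Both also rose between samplings in the inner harbour, UGT by 2.23 ± 0.32 and GST by 2.77 ± 0.20, as Cyp2N, CYP3 and alcohol_DHVI did. Of all tested probes 17.9% were called higher there. GST rose in the outer harbour as well, by 1.80 ± 0.20, against 3.15% of all tested probes. For UGT and GST the site difference changed between samplings, by 1.98 ± 0.45 (adjusted p = 0.00586) and 0.98 ± 0.28 (adjusted p = 0.0264), where of the 5 enzymes only Epoxide_hydrolase1 passed. Of all tested probes 11.1% were called larger in this way.

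Of 8 genes of the aryl hydrocarbon receptor pathway and CYP1 family, 4 had a tested probe. At the second sampling none of the 4 was called between sites, against 12.8% higher and 0% lower over all tested probes. None was at the first either, against 5.25% and 9.24%. Between samplings 0 were called in the outer harbour, against 3.15% higher and 13.4% lower. In the inner harbour 3 were called higher and 0 lower, against 17.9% and 7.56%. These were CYP1A1 (1.03 ± 0.28, adjusted p = 0.00887), the receptor AHR2 (0.76 ± 0.27, 2 of 4 probes, adjusted p = 0.0369) and its repressor AHRR (1.36 ± 0.41, 1 probe, adjusted p = 0.0171), which was well above background on only 6 arrays. For AHR2 the change of the site difference was called with 1 of 4 probes (1.04 ± 0.33, adjusted p = 0.0381). The brightest AHR2 probe was not called for this change. Its site difference was 0.25 at the first and 0.40 at the second sampling. Of 4 efflux transporters, 0 were called between sites at either sampling, against the same site shares of all tested probes. Between samplings 2 were called higher in the inner harbour (ABCC2, 0.85 ± 0.27, and ABC-b1, 0.97 ± 0.33, 1 of 4 probes), against 17.9%. ABCC3 was called lower in the outer harbour with its 1 tested probe (-1.37 ± 0.44), against 13.4%. That probe was well above background on 5 outer arrays at the first sampling and on only 1 at the second. Its second-sampling level there was therefore mostly background. Of 3 nuclear receptors, PPARg was called higher in the inner harbour at both samplings (1.19 ± 0.30 at the second, 0.98 ± 0.30 at the first), against 12.8% and 5.25%. RXR was called lower at the second sampling in both harbour parts (-0.51 ± 0.18 in the inner, -0.66 ± 0.18 in the outer), and PPARa in the inner harbour (-1.51 ± 0.51, 3 of 4 probes). Of all tested probes 7.56% were called lower in the inner and 13.4% in the outer harbour. XDh, the 1 other oxidoreductase on the list, was called higher in the inner harbour at the second sampling (1.22 ± 0.40, adjusted p = 0.0456), against 12.8%. All these comparison genes are given under the main scaling alone. Calls over all probes, those by site at the second sampling among them, depended on the scaling, as given below.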

How the data were processed

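Spot intensity was quantified by the authors in Agilent Feature Extraction (version 9.5.3.1 per the file headers), and those headers record spatial and multiplicative detrending and surrogate values for dim spots. Per the labels' protocols, RNA was amplified from an oligo-dT primer with Cy3 label. The deposited table of log2 values was used as an alternative, and all 24 columns correlated best with the array they are named for (r of 0.992 or more). How it was normalized or centred is not stated in the sources used here. Its column medians ran from 6.774 to 6.818 and its columns, once sorted, nearly coincided (mean SD 0.0251), as columns do after quantile normalization. The deposited values and the quantile setting are therefore not separate lines of evidence. Spots marked as uneven or as population outliers were left out, log2 signals were averaged per probe, and each array's 75th percentile over all probes was subtracted. The 476 probes of 129 genes with at least 50% of spots well above background on at least 6 arrays were tested with limma 3.58.1 in R 4.3.3 (1 mean per group over all 24 arrays, Benjamini-Hochberg adjustment over all tested probes), with the code tested on simulated data. No step between arrays is recorded in the headers, so a scaling can shift all differences of a comparison together. For arrays, their number limits the precision: the median SE of a difference was 0.25.

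Each gene is given by its brightest tested probe, other genes by their brightest called probe, and the 3 most alike genes by correlation. Alternatives were other scalings, normexp background correction, the median over spots, the filter on dim probes, slide or sample number as a block, the compared groups alone, the mean of a gene's probes, and leaving out each sample. A permutation test over samples within groups used 100000 draws. The members and all lists were chosen with earlier results of these data known.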

Additional observations from a re-analysis of the deposited data

Results flagged for a closer look

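Cyp2N in sample 5 of the inner harbour at the first sampling, at 0.10, lay far from the other 5 samples of its group, of which the nearest was at 2.68 and the highest at 3.50. The gap to the nearest was 0.758 of the group's range. Of the 20 groups of levels looked at (5 genes in 4 groups) this was the only one flagged. Among that many groups 1 can be flagged by chance, and the groups are not independent, since the 5 genes share arrays. For Epoxide_hydrolase1 the inner minus outer value was larger at the second sampling than at the first by 1.14 ± 0.36. With the main scaling this passed limma's test of the interaction (adjusted p = 0.0412). It passed under only 1 of 7 other ways of scaling or summarising the arrays, with values of 0.51 to 1.33. Whether the sites differed unequally therefore depended on the scaling.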

How the results depend on the processing

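The counts of called probes among the 21, reported as 4, 10, 13, 4 and 4, moved as follows. For site at the first sampling (4), the count was 0 with quantile normalization, spike-in scaling, the deposited log2 values or no filter on dim probes, 8 with only probes well above background on all arrays, 1 with slide as a block, 1 with sample number as a replicate block and 1 with the compared groups alone; leaving out samples gave 0 to 4. For site at the second sampling (10) it was 4 after quantile normalization, 4 in the deposited table, and 4 to 12 with samples left out, lowest without sample 3 of the inner harbour. Between samplings in the inner harbour (13) no setting moved it by over 1.5 times, and left-out samples gave 13 to 14. In the outer harbour (4) it was 1 with quantile normalization, 8 with the compared groups alone, and 4 to 8 with samples left out. For the change of the site difference (4) it was 0 with quantile normalization, array median, detected probes, spike-ins, deposited values or no filter, 2 with normexp, and 0 to 8 with samples left out.

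Signs turned only for differences not called. Epoxide_hydrolase1 between samplings in the inner harbour was -0.0543 (quantile), -0.213 (detected probes), -0.0267 (deposited values), and -0.0587 and -0.0544 without sample 3 of the first or of the second sampling, in a range up to 0.230. Cyp2N between sites was -0.0274 at the second sampling with the array median and -0.0586 without inner sample 5 (up to 0.223 without others), and 0.0284 at the first without inner sample 5 (down to -0.670). CYP_2 in the outer harbour was 0.0451 with the array median and 0.0687 without sample 2 of the second sampling (down to -0.363 without others). The change of the CYP3 site difference was -0.0121 with detected probes.

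Scaling also moved the split of all called probes (higher and lower). For site at the first sampling it was 25 and 44, against 25 and 10 (array median), 32 and 5 (detected probes) and 10 and 1 (spike-ins). At the second sampling it was 61 and 0, against 11 and 14 (quantile) and 10 and 8 (deposited). Between samplings in the inner harbour it was 85 and 36, against 37 and 56 (detected) and 41 and 29 (spike-ins). In the outer harbour it was 15 and 64, against 28 and 45 (quantile), 41 and 33 (array median), 28 and 59 (detected) and 29 and 47 (deposited). For the change of the site difference it was 53 and 5, against 6 and 8 (quantile), 19 and 11 (array median), 18 and 9 (detected), 7 and 4 (spike-ins) and 7 and 6 (deposited). The median difference of all tested probes ran from -0.12 to 0.16, -0.04 to 0.26, -0.17 to 0.14, -0.36 to 0.16 and -0.013 to 0.47 over these scalings. The cause was not tested.

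Sample numbers are shared by 4 or 5 samples of the compared groups, but the correlation of same-numbered samples was over 0.1 for at most 2 of 5, so the numbers were not taken as pairs; apart from the count above, the replicate block changed the call of CYP_2 at the first sampling (0.93, adjusted p = 0.0540).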
